A study of Homo sapiens with 2 samples.

Results

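The genes described here are 44 genes that make, lengthen, desaturate, activate, store and burn fatty acids. They were chosen by name as the enzymes, droplet coat proteins and carriers of these steps, and all 44 were found among the 44591 genes of the deposited table. The data are poly(A)-selected RNA-seq read counts from MHCC97H and MHCC97L. Both are wild-type, established cell lines of human liver cancer (hepatocellular carcinoma), and both were grown in DMEM with serum. The submitters describe MHCC97H as having high and MHCC97L as having low spontaneous metastatic potential, and the stated aim was to find genes of RNA-binding proteins related to metastasis. With a single library per line (n = 1), no difference below has a replicate check, no p-value is given, and every comparison is between these 2 libraries.

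Fatty acid synthesis starts in the cytosol, where acetyl-CoA is carboxylated to malonyl-CoA and built up into palmitate by fatty acid synthase. Desaturases and elongases then modify the chain, acyl-CoA synthetases couple it to coenzyme A, and acyltransferases place it on glycerol to form triglyceride, which is stored in droplets coated by perilipins. Lipases release the fatty acids again, and the carnitine shuttle and the enzymes of beta-oxidation break them down in mitochondria. The liver is a main site of all of these steps.

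The libraries held 28967153 counted reads for MHCC97H and 24964246 for MHCC97L. Levels are given in counts per 1000000 reads (CPM) of an effective library size set by the trimmed mean of M-values (TMM). A count of 0 allowed up to 0.104 CPM in MHCC97H and 0.120 CPM in MHCC97L, on total counts. Intervals are 95% exact (Clopper-Pearson) intervals and, like these floors, cover counting error only. Reads copied by PCR and carrying no molecular identifier are not independent molecules. Of 20 hepatocyte markers, 11 reached 1 CPM in at least 1 library. SERPINA1 stood at 5800 CPM in MHCC97H against 8422 CPM in MHCC97L, albumin (ALB) at 1.85 against 5.57 CPM, and haptoglobin (HP) had no read in either. Of these 11, 5 were at least 2-fold lower in MHCC97H with an interval that excluded equal expression, and none was higher. Of all 14578 genes that reached this level, 4.65% were lower and 7.06% higher by the same rule. Among the 5, AMBP had the lowest log2 ratio (-1.75, with 128 and 330 reads) and ASGR1 had 46 and 84 reads. AHSG had only 16 and 30 reads and ASGR2 only 12 and 29. With trends with transcript GC content and length removed, as described below, 5 of the 11 were lower, beside 3.79% of all genes. APOB then took the place of ASGR1, and all 11 log2 ratios were negative. The part of the marker difference in the lipid gene results was not tested. Summed levels in MHCC97H and MHCC97L were 3.28 and 6.42 CPM for 8 adipocyte markers, 35.4 and 44.1 CPM for 9 fibroblast and stellate cell markers, 92.3 and 77.0 CPM for 7 endothelial markers, and 19.1 and 22.5 CPM for 8 leukocyte markers. ADIPOQ, LEP, CIDEA and RETN among the adipocyte markers, and CD3E and TYROBP among the leukocyte markers, had no read in either library. PTPRC had 1 read in MHCC97H, PECAM1 had 1 and 3 reads, and ESAM alone made up 91.5 and 76.3 CPM of the endothelial sum. Of 6 fibroblast and stellate cell markers that reached 1 CPM, 1 was higher by the same rule and 2 were lower, beside 7.06% and 4.65% of all genes. These were FAP (5.69 and 2.64 CPM), and COL1A2 (2.70 and 6.46 CPM) and PDGFRB (2.18 and 4.76 CPM). The leukocyte sum came mostly from CD68 (7.58 and 6.29 CPM), LAPTM5 (5.46 and 10.5 CPM) and CD14 (4.75 and 3.53 CPM).

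A few lipogenic genes carried most of the reads of the 44 in both libraries, while 8 of the 44 were barely counted. The 44 genes took 0.802% of the MHCC97H reads (0.799 to 0.805) and 0.706% of the MHCC97L reads (0.702 to 0.709). After TMM scaling the sums were 7555 and 7491 CPM, a log2 ratio of 0.01, so the difference in read share depended on the scaling. In bulk RNA, fewer cells expressing a gene and less of its RNA per cell cannot be told apart. SCD, FASN, ACLY and ACACA together made up 64.5% of the members' reads in MHCC97H (64.3 to 64.7) and 59.7% in MHCC97L (59.4 to 59.9). At the other end, SCD5, ELOVL2, ELOVL4, ELOVL5, PLIN2, PNPLA3, FABP1 and CD36 stayed under 1 CPM of total counts in both libraries. The remaining 36 genes reached that level in both libraries. Genes that reached it in at least 1 library are called kept, and ratios are counted over them.

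**Figure D1:**
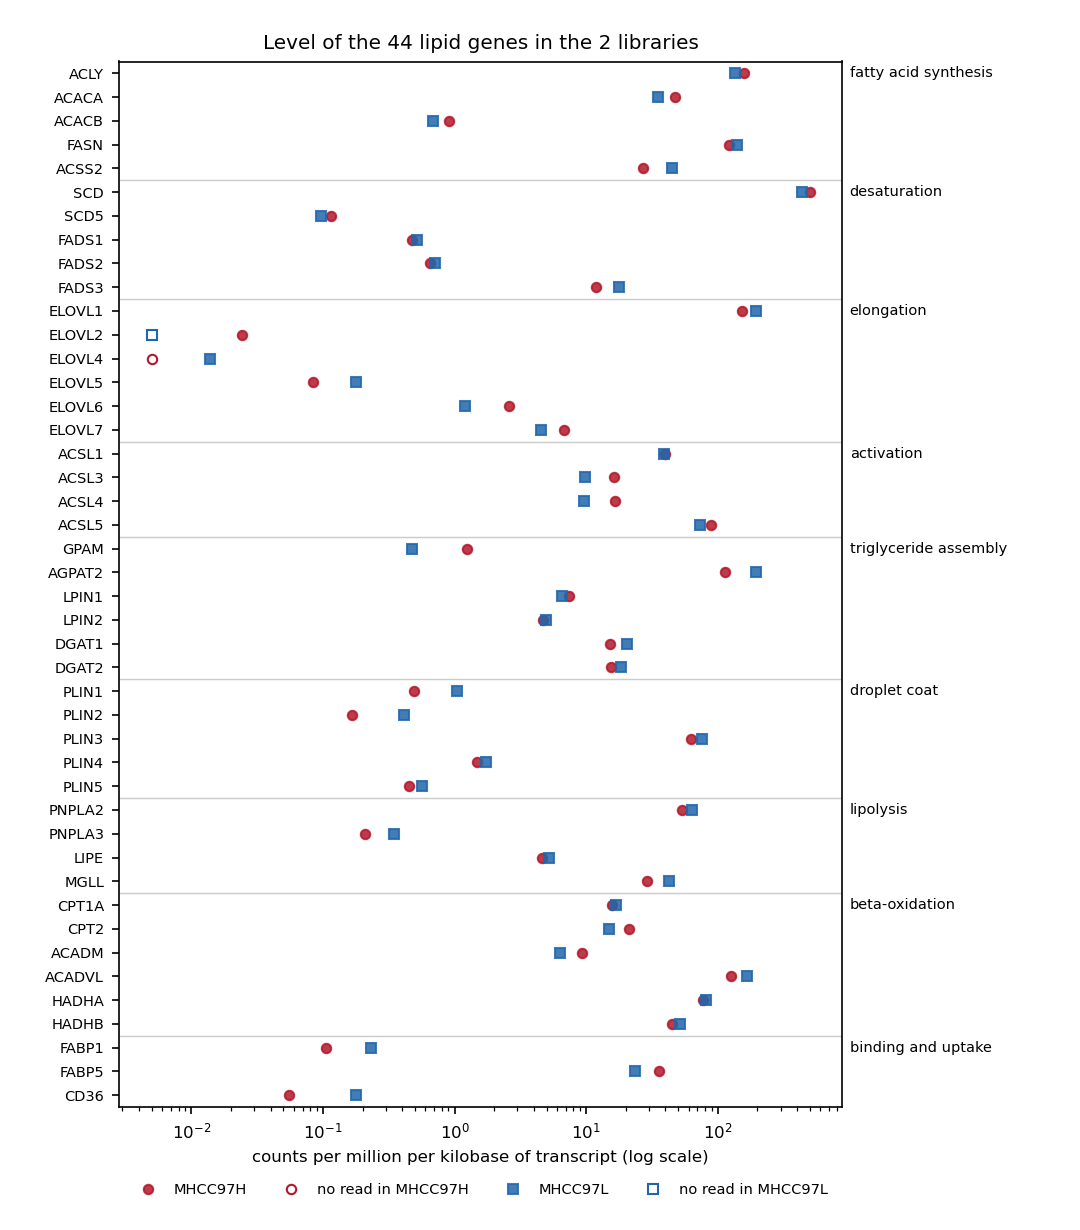
Level of each of the 44 genes, ordered by role, in CPM per kilobase of transcript on a log scale, with circles for the MHCC97H library and squares for the MHCC97L library; open symbols mark a gene with no read, drawn at an arbitrary position. Levels spanned several orders of magnitude between genes, from SCD at 498 in MHCC97H and 435 in MHCC97L down to CD36 at 0.0550 in MHCC97H and SCD5 at 0.0960 in MHCC97L among genes with reads in both libraries, while the symbols of the libraries lay close together for most genes.

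By a rule of at least 2-fold with an interval that excluded equal expression, 2 of the 36 genes were higher in MHCC97H (5.56%, against 7.06% of all 14578 kept genes) and 1 was lower (2.78%, against 4.65% of all kept genes). Of all genes that met the rule, 60.3% were higher, or 77.9% when scaled by total counts. The higher genes were GPAM and ELOVL6, and the lower gene was PLIN1. At 1.5-fold, 5 were higher (13.9%, background 19.3%) and 4 were lower (11.1%, background 13.8%). These shares were close to or under those of all genes, so they do not set the lipid genes apart. ACSL3, ACSL4 and FABP5 joined on the higher side and ACSS2, AGPAT2 and FADS3 on the lower side. FABP5 (1.52-fold) and FADS3 (log2 ratio -0.59) were just inside that limit, and ELOVL7 (1.49-fold) and ACADM (1.48-fold) just outside it. The median log2 ratio of the 36 genes was -0.11, beside 0.03 for all kept genes, with 15 genes above and 21 below equality. Scaling by total counts shifts every log2 ratio up by 0.17, and with it FADS1, FADS2, LPIN2, LIPE, CPT1A and HADHA pass from below to above equality. For 14 genes the interval lay above equality, for 15 it lay below, and for 7 it included it.

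**Figure D2:**
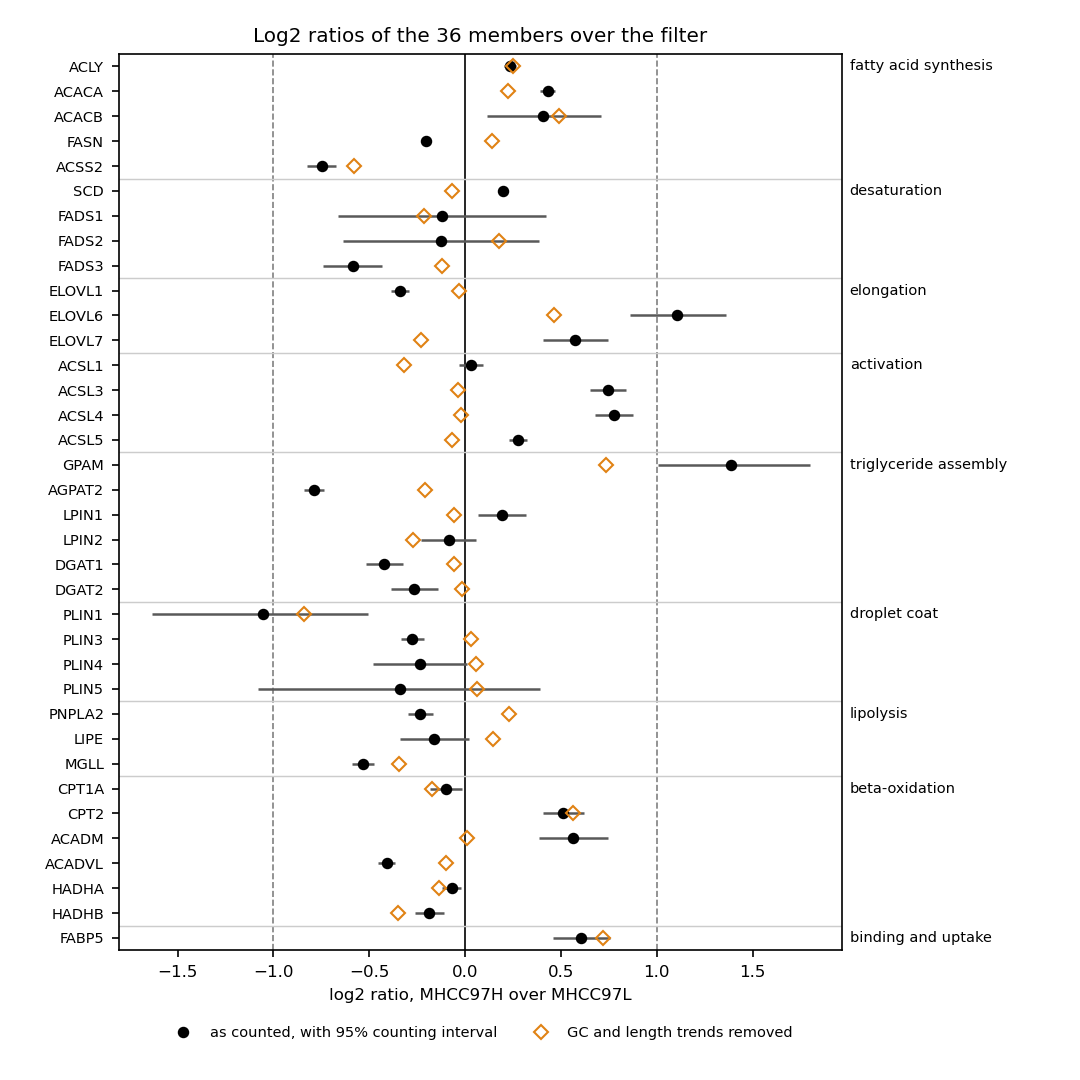
Log2 ratio of MHCC97H over MHCC97L for the 36 genes over the filter, ordered by role; filled circles with bars are the ratio as counted with its 95% counting interval, open diamonds the ratio after the trends with transcript GC content and length were removed, and dashed lines mark a 2-fold difference. GPAM (1.39) and ELOVL6 (1.11) lay right of the upper line and PLIN1 (-1.06) left of the lower line as counted, and no diamond lay beyond either line.

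The ratios followed the base composition of the transcripts, as they did across the whole table. Transcript GC content and length were taken from the longest coding transcript in GENCODE 29. Across the 36 genes the Spearman correlation of the log2 ratio with GC content was -0.80, beside -0.64 across all 13876 kept genes with a value. With length it was 0.48, beside 0.37. These describe genes of the same pair of libraries, which are not independent replicates. All 15 members with a GC content above 55% had a negative log2 ratio, as did 82.0% of all kept genes above that content. All 7 members below 45% had a positive one, as did 85.2% of all kept genes below that content. These limits were set after the values were seen. With the trends with GC content and length removed, no member met the 2-fold rule in either direction, beside 2.31% of all genes higher and 3.79% lower. The median was then -0.035, and 33 of the 36 genes lay within 1.5-fold. The exceptions were GPAM (0.74), FABP5 (0.72) and PLIN1 (-0.84), and the ratio of ACSS2 moved to -0.58.

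**Figure D3:**
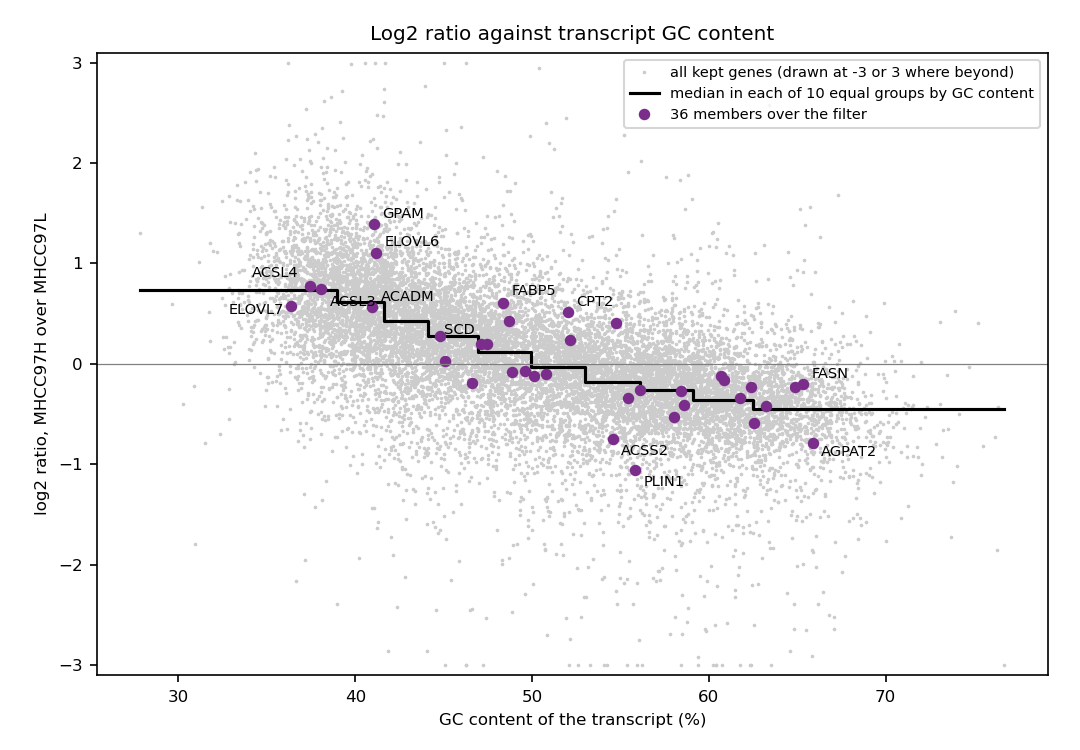
Log2 ratio of MHCC97H over MHCC97L against the GC content of the transcript in percent; grey points are all kept genes, the black line gives the medians of 10 groups of like size sorted by that content, and purple points are the 36 lipid genes. The line falls from 0.73 to -0.45, and most lipid genes lie near it. GPAM, ACACB, CPT2, ELOVL6 and FABP5 lie furthest above it and PLIN1 and ACSS2 furthest below it.

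Among the enzymes of synthesis, the step from acetyl-CoA to palmitate was carried at levels within 1.5-fold in both libraries as scaled by TMM, while ACACA was at 0.60 on the log2 scale by total counts. FASN, which encodes fatty acid synthase, had 32042 reads in MHCC97H and 28274 in MHCC97L, or 1042 and 1202 CPM. Its log2 ratio was -0.21 (-0.23 to -0.18) and became 0.14 with the trends removed, so its direction depended on that step. ACLY, the ATP citrate lyase that supplies cytosolic acetyl-CoA, stood at 689 and 585 CPM, with a log2 ratio of 0.24 (0.20 to 0.27), or 0.25 with the trends removed. ACACA, the cytosolic acetyl-CoA carboxylase that makes malonyl-CoA for synthesis, stood at 469.9 and 349 CPM, a log2 ratio of 0.43 (0.39 to 0.47), or 0.22 with the trends removed. Its mitochondria-associated paralog ACACB, whose malonyl-CoA restrains carnitine palmitoyltransferase, had 262 and 151 reads. The log2 ratio of ACACB was 0.41 (0.11 to 0.71), or 0.49 with the trends removed. Per kilobase of transcript ACACA was 51.8 times the level of ACACB in MHCC97H and 51.1 times in MHCC97L, so the balance of the carboxylases was alike in both. ACSS2 encodes the cytosolic acetyl-CoA synthetase that makes acetyl-CoA from acetate. Like FASN it had a negative log2 ratio, at 82.3 CPM in MHCC97H against 138 CPM in MHCC97L, 1.68-fold lower (1.59 to 1.77).

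SCD, the delta-9 desaturase that makes oleate from stearate, had the highest level of all 44 genes per kilobase of transcript, at 498 CPM per kilobase in MHCC97H and 435 in MHCC97L. Without the division by length it stood at 2672 and 2333 CPM. By CPM it ranked 21 and 34 among all genes of the table. It took 0.284% of the MHCC97H reads (0.282 to 0.286) and 0.220% of the MHCC97L reads (0.218 to 0.222). Its log2 ratio was 0.20 (0.18 to 0.21) and -0.07 with the trends removed. The pseudogene SCDP1 had 5 reads in MHCC97H and none in MHCC97L. SCD5, a second delta-9 desaturase of primates, had 11 and 7 reads. FADS1 and FADS2 encode the delta-5 and delta-6 desaturases of polyunsaturated fatty acid synthesis, and both had few reads, which may depend on how they were counted. FADS1 had 66 and 55 reads (2.15 and 2.34 CPM) and FADS2 had 73 and 61 reads (2.37 and 2.59 CPM). Their log2 ratios, -0.12 (-0.66 to 0.42) and -0.13 (-0.64 to 0.39), were not distinguishable from equality at this depth. Per kilobase SCD stood 762 times above FADS2 in MHCC97H and 609 times in MHCC97L. FADS1 and FADS2 share exonic bases on opposite strands in GENCODE 29, 4.79% of those of FADS1. FADS3, the third gene of that cluster, was the most counted of the 3, at 21.2 and 31.8 CPM, a log2 ratio of -0.59 (-0.74 to -0.43), or -0.12 with the trends removed.

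The elongases extend fatty acyl chains at the endoplasmic reticulum. Among the 6 elongases of the members, most reads were those of ELOVL1, which extends saturated very long chains. It made up 94.2% and 97.1% of their summed level per kilobase. It stood at 251 CPM in MHCC97H and 317 CPM in MHCC97L, a log2 ratio of -0.34 (-0.39 to -0.29), or -0.03 with the trends removed. ELOVL6 extends palmitate to stearate, and had 513 reads (16.7 CPM) in MHCC97H against 182 (7.74 CPM) in MHCC97L. It was 2.15-fold higher in MHCC97H (1.82 to 2.57), and 0.46 on the log2 scale remained with the trends removed. ELOVL6 took 5.64% of the reads of the 6 elongase genes in MHCC97H (5.18 to 6.14) and 2.25% in MHCC97L (1.93 to 2.59). Per kilobase ELOVL1 was 59.6 times the level of ELOVL6 in MHCC97H and 163 times in MHCC97L. ELOVL7, another elongase of saturated chains, stood at 28.1 and 18.9 CPM, with a log2 ratio of 0.58 (0.41 to 0.74) that became -0.23 with the trends removed. ELOVL3, an elongase outside the members, had 64 and 41 reads (2.08 and 1.74 CPM). The other elongases among the members were almost uncounted. ELOVL5 and ELOVL2, which act on polyunsaturated chains, had 8 and 13 reads and 3 and 0 reads, and ELOVL4, which makes the longest chains, had 0 and 1. No exon of ELOVL5 overlaps another gene in GENCODE 29, but the annotation used for the counts is not given in the sources used here.

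The promoter windows of ELOVL6 and ELOVL1 are shown because these elongases had the most different ratios of any kept paralogs within a role, and that of GPAM because it was the other gene at least 2-fold higher. They are the 250 bases before the RefSeq gene start in GRCh38.p14, which is not the hg19 build named for the counts, all on the minus strand and written 5′ to 3′. Their positions are chr4:110198616-110198865 for ELOVL6, chr1:43368012-43368261 for ELOVL1 and chr10:112183766-112184015 for GPAM. Capitals mark every match to a searched motif on either strand.
ELOVL6: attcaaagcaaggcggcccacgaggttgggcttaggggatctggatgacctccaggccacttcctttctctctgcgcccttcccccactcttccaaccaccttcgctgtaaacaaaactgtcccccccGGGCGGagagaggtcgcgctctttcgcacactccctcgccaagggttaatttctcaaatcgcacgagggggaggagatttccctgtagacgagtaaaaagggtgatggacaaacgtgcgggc
ELOVL1: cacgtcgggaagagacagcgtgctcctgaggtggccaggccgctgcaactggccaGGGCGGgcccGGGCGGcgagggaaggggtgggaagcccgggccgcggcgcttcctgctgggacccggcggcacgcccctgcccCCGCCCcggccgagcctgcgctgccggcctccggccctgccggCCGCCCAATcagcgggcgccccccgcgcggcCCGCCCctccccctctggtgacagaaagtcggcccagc
GPAM: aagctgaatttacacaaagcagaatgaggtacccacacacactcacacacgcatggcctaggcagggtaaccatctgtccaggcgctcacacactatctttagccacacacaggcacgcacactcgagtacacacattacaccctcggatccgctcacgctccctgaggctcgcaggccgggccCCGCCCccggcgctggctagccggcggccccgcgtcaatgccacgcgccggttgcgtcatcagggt

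ELOVL6 held 1 GC box (GGGCGG), from 122 to 117 bases before the start. GPAM held 1 on the other strand, from 66 to 61 bases before it. ELOVL1 held 5, with a CCAAT box from 65 to 61 bases before the start that overlaps the GC box from 69 to 64. The GC content of the windows was 57.2% for ELOVL6, 62.0% for GPAM and 79.6% for ELOVL1. RefSeq windows were found for 38 of the 44 genes, all but FASN, DGAT1, DGAT2, PNPLA3, MGLL and FABP5. A GC box was in 26 of the 38 (68.4%), in 67.3% of the windows of kept genes and in 42.6% of all 35116 windows. A CCAAT box was in 13 (34.2%), in 35.1% of those of kept genes and in 32.0% of all. The E-box CACGTG was in 3 windows, those of ELOVL4, ELOVL5 and PLIN2 (7.89%, beside 8.95% of the windows of kept genes and 6.34% of all), and all 3 genes were under the filter. The sterol regulatory element TCACNCCAC was in 1, that of PNPLA2 (2.63%, beside 0.919% of the windows of kept genes and 0.883% of all). Direct repeats of the nuclear receptor half-site AGGTCA, spaced by 1 or by 4 bases, were in none of the 38, and in 0.0171% and 0.0142% of all windows.

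The long-chain acyl-CoA synthetases, which activate fatty acids for every later use, all had positive log2 ratios as counted. ACSL5, found at mitochondria and the endoplasmic reticulum, made up 54.8% and 55.5% of the summed level of the 4 per kilobase, and stood at 299 CPM in MHCC97H and 247 CPM in MHCC97L (log2 ratio 0.28, 0.23 to 0.32). ACSL1, the major form of liver and fat, stood at 163 and 159.5 CPM, and its interval (-0.03 to 0.09) included equality. ACSL3, which acts on nascent lipid droplets, stood at 93.2 and 55.6 CPM, 1.68-fold higher in MHCC97H (1.57 to 1.79). ACSL4, which prefers arachidonate, stood at 88.6 and 51.7 CPM, 1.71-fold higher (1.60 to 1.83). ACSL4 took 13.8% of the reads of the 4 synthetase genes in MHCC97H (13.3 to 14.3) and 10.1% in MHCC97L (9.54 to 10.6), and ACSL1 took 25.3% (24.7 to 25.9) and 31.1% (30.3 to 31.9). The transcripts of ACSL3 and ACSL4 were among the most AT-rich of the set, at 38.1% and 37.4% GC. With the trends removed their log2 ratios were -0.04 and -0.02, and all 4 synthetases were then below equality, down to -0.32 for ACSL1.

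Triglyceride assembly held the genes furthest apart within a role. GPAM, the mitochondrial glycerol-3-phosphate acyltransferase that opens the pathway, had 244 reads (7.94 CPM) in MHCC97H against 71 (3.02 CPM) in MHCC97L. It had the highest ratio of the 36 genes, 2.62-fold (2.01 to 3.47), and 0.74 on the log2 scale remained with the trends removed. GPAT3 and GPAT4, acyltransferases of the same step outside the members, stood above GPAM in both libraries and were not higher in MHCC97H. GPAT3 stood at 10.7 and 13.3 CPM (log2 ratio -0.31, -0.53 to -0.08) and GPAT4 at 31.9 and 34.4 CPM (-0.11, -0.24 to 0.03). The GPAM ratio is therefore not that of the whole step. AGPAT2, which adds the next acyl chain to make phosphatidic acid, was 90.7 times the level of GPAM per kilobase in MHCC97H and 412 times in MHCC97L. Its own level was lower in MHCC97H, at 171 CPM against 295 CPM, 1.73-fold lower (1.67 to 1.79). Its transcript had the highest GC content of the 36, 65.9%, and its log2 ratio of -0.79 became -0.21 with the trends removed. The phosphatidate phosphatases, which make diglyceride, differed less. LPIN1 stood at 42.3 and 37.0 CPM (log2 ratio 0.19, 0.07 to 0.32), and LPIN2 at 29.1 and 30.9 CPM (-0.09, -0.23 to 0.06). DGAT1 and DGAT2 are unrelated enzymes that complete triglyceride, and both were somewhat lower in MHCC97H as counted. DGAT1 stood at 56.6 and 75.8 CPM (log2 ratio -0.42, -0.52 to -0.32) and DGAT2 at 37.7 and 45.2 CPM (-0.26, -0.39 to -0.14), and with the trends removed they were at -0.06 and -0.02. Per kilobase the level of DGAT1 was 0.993 times that of DGAT2 in MHCC97H and 1.11 times in MHCC97L.

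The perilipin reads in both libraries were mostly those of PLIN3. This ubiquitous perilipin stood at 147 CPM in MHCC97H and 178 CPM in MHCC97L (log2 ratio -0.28, -0.34 to -0.21), or 0.03 with the trends removed. It took 92.2% of the reads of the 5 perilipin genes in MHCC97H (91.4 to 92.9) and 91.5% in MHCC97L (90.7 to 92.3), and per kilobase 96.1% and 95.3% of their summed level. PLIN2, the usual coat protein of liver droplets, had 10 and 19 reads (0.325 and 0.808 CPM). With TMM scaling its log2 interval of -2.58 to -0.14 excluded equality, but by less than the 0.17 that scaling by total counts adds. Per kilobase PLIN3 was 383 times PLIN2 in MHCC97H and 186.5 times in MHCC97L. No exon of PLIN2 overlaps another gene in GENCODE 29. With the annotation of the counts not known, low expression and reads lost in counting cannot be told apart for PLIN2, and the same holds for ELOVL5, FADS1 and FADS2. PLIN1, the coat protein of fat cells, had 45 reads (1.46 CPM) against 72 (3.06 CPM) and was 2.08-fold lower in MHCC97H (1.42 to 3.11), or -0.84 on the log2 scale with the trends removed. It no longer met the rule of 2-fold when scaled by total counts. The summed adipocyte markers were lower as well (3.28 against 6.42 CPM), through CFD (2.08 against 5.23 CPM), while CIDEC stood at 1.14 against 0.85 CPM. Their part in the PLIN1 difference was not tested. PLIN4, another perilipin of fat cells, had 294 and 265 reads (log2 ratio -0.24, -0.48 to 0.01). PLIN5, the perilipin of oxidative tissues, had 34 and 33 reads (-0.34, -1.08 to 0.39). Neither interval excluded equality. In GENCODE 29, 17.8% of the exonic bases of PLIN3 are shared with a gene on the opposite strand. For PLIN5, 21.7% are shared with a gene on the same strand. No strand setting is given, and none would separate the PLIN5 overlap, so some reads of PLIN3 and PLIN5 may belong to the neighbour. CPT2, DGAT1 (11.1%) and PNPLA2 (10.4%) also share exonic bases.

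The kept lipases all had negative log2 ratios as counted, though LIPE was at 0.01 when scaled by total counts. PNPLA2, the triglyceride lipase that opens lipolysis, stood at 131 CPM in MHCC97H and 154 CPM in MHCC97L (log2 ratio -0.23, -0.30 to -0.17), or 0.23 with the trends removed. LIPE, the hormone-sensitive lipase acting on diglyceride, stood at 17.8 and 19.9 CPM (-0.16, -0.34 to 0.02). MGLL, which releases the last fatty acid, stood at 144 and 209 CPM (-0.53, -0.59 to -0.48), or -0.35 with the trends removed. PNPLA3, a droplet-bound relative of PNPLA2, had 18 and 23 reads. Per kilobase PNPLA2 was 11.6 times LIPE in MHCC97H and 12.2 times in MHCC97L.

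The 6 members of mitochondrial beta-oxidation lay within 1.5-fold as scaled by TMM. By total counts ACADM (log2 ratio 0.74) and CPT2 (0.68) lay beyond it. CPT1A, the rate-limiting entry of the carnitine shuttle, stood at 82.0 CPM in MHCC97H and 87.8 CPM in MHCC97L (log2 ratio -0.10, -0.18 to -0.01). CPT2, which acts at the inner membrane, stood at 65.5 and 45.9 CPM (0.51, 0.41 to 0.62), and it was at 0.56 with the trends removed. ACADVL and ACADM encode the dehydrogenases of very long and medium chains. ACADVL stood at 291 and 387 CPM (-0.41, -0.45 to -0.37), and ACADM at 24.3 and 16.5 CPM (0.56, 0.39 to 0.74), and with the trends removed they were at -0.10 and 0.01. HADHA and HADHB, the subunits of the trifunctional protein, kept a like proportion. HADHA stood at 234 and 245.5 CPM (-0.07, -0.12 to -0.02) and HADHB at 96.5 and 109.9 CPM (-0.19, -0.26 to -0.11), and per kilobase HADHA was 1.71 and 1.58 times HADHB. With the trends removed HADHA was at -0.14, HADHB at -0.35 and CPT1A at -0.17, each further from equality than as counted. The summed level of the 6 genes was 793 CPM in MHCC97H and 892 CPM in MHCC97L.

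Among the carriers, FABP5 was well counted and the forms best known from liver and fat were barely so. FABP5, the epidermal-type fatty acid binding protein, had 1089 reads (35.4 CPM) in MHCC97H against 547 (23.3 CPM) in MHCC97L, a log2 ratio of 0.61 (0.46 to 0.76). With the trends removed it was 0.72. FABP5 has pseudogenes of like sequence, of which FABP5P7 had 21 and 5 reads and FABP5P9 had 7 and 0, and reads may have been divided among them. FABP1, the liver fatty acid binding protein, had 6 and 10 reads, and CD36, a fatty acid translocase, had 4 and 10. At these counts no difference was detectable, since the log2 intervals of FABP1 (-2.87 to 0.48) and CD36 (-3.84 to 0.09) included equality.

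**Figure D4:**
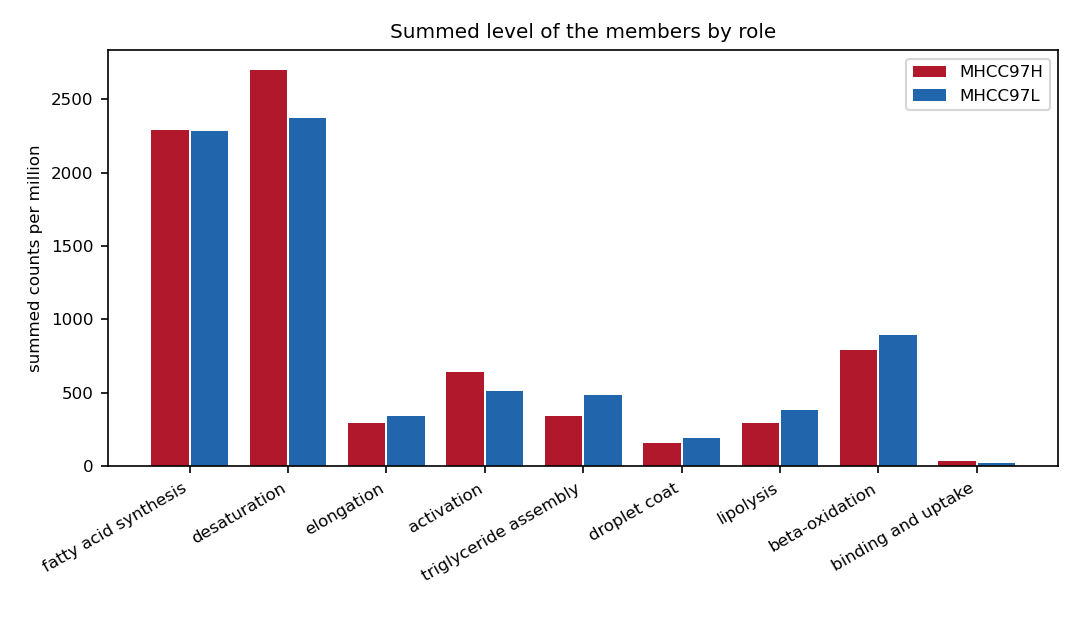
Summed level of the 44 genes by role, in CPM, with red bars for the MHCC97H library and blue bars for the MHCC97L library. Synthesis (2292 and 2281) and desaturation (2698 and 2370) made up most of the total in both. As scaled by TMM, the synthesis sums were nearly equal, while desaturation, activation (643 and 513) and binding and uptake (35.7 and 24.1) were higher in MHCC97H. Elongation (296 and 345), triglyceride assembly (344 and 487), droplet coats (160 and 195), lipolysis (293 and 384) and beta-oxidation (793 and 892) were lower. SCD alone gave 2672 and 2333 of the desaturation sums, and AGPAT2 alone 171 and 295 of the triglyceride assembly sums. The sums are as counted. With the trends with GC content and length removed, the median log2 ratio of the kept members changed sign for some roles. These were elongation (0.58, then -0.03), activation (0.51, then -0.05), droplet coats (-0.31, then 0.04) and lipolysis (-0.23, then 0.14). As a share of total counts beta-oxidation took 0.0842% and 0.0841%.

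Other genes of the same pathways, from lists chosen for their function, held 3 higher and 0 lower of 80 kept by the 2-fold rule, beside 7.06% higher and 4.65% lower of all kept genes. Of 17 further genes of synthesis, desaturation and elongation, 13 were kept and none was 2-fold apart (median log2 ratio 0.13). The most counted were SLC25A1, the mitochondrial citrate carrier (1219 and 1676 CPM), and TECR, a reductase of the elongation cycle (218 and 301 CPM). Of 29 further genes of activation, transport and binding, 17 were kept and none was 2-fold apart (median -0.09), the most counted being the acyl-CoA binding protein gene DBI (102 and 151 CPM) and the transporter gene SLC27A4 (107 and 97.6 CPM). Of 31 further genes of triglyceride assembly, droplets and lipolysis, 23 were kept (median -0.06). AGPAT5, an acyltransferase (log2 ratio 1.03, 0.70 to 1.37), and LDAH, a droplet-associated hydrolase (1.42, 0.93 to 1.95), were higher in MHCC97H and none was lower. LDAH was named after its value was seen. Of 30 further genes of beta-oxidation, 27 were kept (median 0.19), and ACAD11, an acyl-CoA dehydrogenase, was higher at 6.41 and 3.02 CPM (1.08). With the trends removed AGPAT5 (0.50), LDAH (0.87) and ACAD11 (0.91) no longer met the rule, and PNPLA4, another patatin-like lipase, was lower (-1.20).

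The regulators named here by their role lay within 2-fold. SREBF1, the transcription factor that drives fatty acid synthesis, stood at 252 CPM in MHCC97H and 306 CPM in MHCC97L (log2 ratio -0.28, -0.32 to -0.23). SREBF2, its relative for sterol synthesis, stood at 356 and 419 CPM, and INSIG1, which holds both back at the endoplasmic reticulum, at 222 and 268 CPM. With the trends removed SREBF1 was at 0.10, SREBF2 at -0.06 and INSIG1 at -0.53. MLXIPL, the carbohydrate-responsive factor, stood at 11.1 and 14.8 CPM. PPARA, the fatty acid sensor of liver oxidation, stood at 17.8 and 15.0 CPM, PPARG, the fat cell factor, at 31.7 and 34.8 CPM, and their coactivator PPARGC1A had 22 and 26 reads. Of the 28 regulators 26 were kept, with a median log2 ratio of -0.18. By the 2-fold rule 2 were higher and none lower, beside 7.06% higher and 4.65% lower of all kept genes. The 2 were MBTPS2, the protease that makes the second cut in SREBP (1.38, 1.17 to 1.60), and PRKAA1, a catalytic subunit of AMP-activated kinase (1.16, 1.03 to 1.29). With the trends removed they stood at 0.56 and 0.30, and PPARGC1A at -1.30.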

How the data were processed

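Poly(A)-selected RNA was sequenced from 1 library each of MHCC97H and MHCC97L. The deposited table holds raw, whole-number read counts per gene. The submitters' processing notes name hg19, HTSeq 0.11.2, HISAT2 2.1.0 and bcl2fastq. The gene annotation is not given in the sources used here, nor is the strand setting or the handling of multi-mapped reads.

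From the deposited counts, TMM factors (1.06 and 0.942) were computed in edgeR 4.0.16 over the 14578 genes with at least 1 CPM of total counts in either library. Log2 ratios used a prior count of 0.5 scaled to library size, and intervals are exact intervals of the split of a gene's reads. Levels per kilobase, GC content and length used the longest coding transcript in GENCODE 29 (GRCh38), a choice that affects them. Lowess trends (span 0.2) were removed where a transcript was found (13876 genes). The 2-fold rule and the removal of a trend with GC content were tested on simulated counts with counting error only and a planted linear trend. Removal of the trend with length, TMM scaling, levels per kilobase and the 1.5-fold rule were not tested in this way. Alternatives covered scaling (DESeq2 1.42.0 among others), filter, fold, prior count, interval, trends and an assumed coefficient of variation. R 4.3.3 and, in Python 3.11.15, statsmodels 0.14.6, scipy 1.17.1, pandas 2.3.3 and numpy 2.4.6 were used.

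The members and lists were chosen with earlier results of these data known. All 44 members are described. Of each other pathway or regulator list, up to 3 genes per direction past the rule and at 5 CPM or more are named. Otherwise the 2 with the most reads are named, beside 7 regulators by role. LDAH, at 4.91 CPM in MHCC97H, was named outside this rule, as were GPAT3, GPAT4, ELOVL3 and PNPLA4. Cell type markers were not named by this rule.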

Additional observations from a re-analysis of the deposited data

How the results depend on the processing

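The 2 higher members were counted under DESeq2 size factors, total counts, upper quartile scaling, no filter, a filter at 5 CPM, a prior count of 5, the Wilson interval and an assumed coefficient of variation of 0.2. Removal of the trend with GC content, alone or with length, left 0 higher and 0 lower. The 1 lower member, PLIN1, became 0 under total counts, a filter at 5 CPM or a prior count of 5, and 2 with no filter, when PLIN2 joined. At 1.5-fold the counts were 5 higher and 4 lower. These became 9 and 2 under total counts, 2 and 1 with either trend removal, and 2 and 1 with the assumed variation. The median log2 ratio of -0.11 became 0.060 under total counts, which moved all genes by 0.17, and 0.0033 and -0.035 with the trend with GC content alone and with both removed. The pathway and regulator lists held 5 higher genes, 9 under total counts, 0 with either trend removal and 19 at 1.5-fold, and 0 lower, 2 with no filter, 2 with either trend removal and 11 at 1.5-fold. No called member changed direction. Over all genes 60.3% of calls were higher, 77.9% under total counts, 75.6% with the filter at 5 CPM, 49.7% with no filter and 37.8% with both trends removed. Total counts changed the sign of 6 of the 36 ratios and removal of both trends that of 14. The cause of these shifts was not tested. No paired analysis was possible because each line has 1 library. With 1 library per line, spread between cultures is unknown. At the counts of the 8 members under the filter, only PLIN2 had an interval that excluded equality with TMM scaling, and not with total counts.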
